A study of Rattus norvegicus with 12 samples.

Results

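Endothelin-2 (ET-2) was compared with endothelin-1 (ET-1) at the same dose in purified rat retinal ganglion cells, the output neurons of the retina, whose axons make up the optic nerve. The comparison rests on 6 of the series' 12 Affymetrix Rat Genome 230 2.0 arrays, 3 with ET-2 and 3 with ET-1, taken in pairs by the biological replicate number that the labels give. Its members are the 20826 of 31042 probe sets that the platform annotation assigns to a single gene symbol, and they cover 14217 genes. Of these, 12193 probe sets (9425 genes) had a mean signal no lower than that of the median probe set and were tested, and 8633 lay below it. Probe sets with several symbols (436) or none (9780) entered the fit and the adjustment of p-values but are not named.

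All groups were made from the same kind of culture. The cells came from Sprague-Dawley pups at postnatal days 4 to 6 and were selected with an antibody to Thy-1.1. They grew for 7 days in serum-free DMEM with brain-derived neurotrophic factor at 50 ng/mL, ciliary neurotrophic factor at 10 ng/mL and forskolin at 5 ng/mL, under 10% CO2. Neurotrophic factors were then withdrawn overnight from every group, controls included. ET-1, ET-2 or endothelin-3 (ET-3) followed at 100 nM for 24 h. The 3 control arrays are titled untreated and described as vehicle-treated in the labels, and are called untreated here. Whether a replicate number marks a litter, a preparation or a day, and which species' peptides were used, is not stated in the labels, and only 1 dose and 1 time were measured.

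Endothelins are short peptides, cut from larger precursors by endothelin-converting enzymes, that act on a pair of G protein-coupled receptors, ETA and ETB. Both receptors couple to phospholipase C and calcium release. Human ET-1 and ET-2 differ from each other in a pair of neighbouring residues near the N terminus. ET-1 and ET-2 bind both receptors with similar affinity, whereas ET-3 prefers ETB. Endothelins are best known as constrictors of blood vessels. In the eye they have been studied for their effects on ganglion cells and the optic nerve in glaucoma models. The question that the ET-2 against ET-1 comparison addresses is whether these related peptides leave different transcript levels at matched dose and time, and how large a difference the arrays leave possible.

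The arrays carried the ganglion cell label in their markers, with other cells present. Of 20 measured ganglion cell markers, 19 were above the signal filter. The signal of Sncg, gamma-synuclein, was 17670, 20370 and 27980 with ET-1 and 18650, 21590 and 28130 with ET-2 in replicates 1, 2 and 3. Of 11 measured photoreceptor markers 1 was above the filter, and of 10 fibroblast markers 9 were. The summed fibroblast signal differed far more between replicates than between peptides: it was 56721, 13864 and 9812 with ET-1 and 60418, 10933 and 8063 with ET-2. Fewer cells of a type and less RNA per cell cannot be told apart in such bulk samples.

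No probe set was called different between ET-2 and ET-1. Of 15521 tested, 0 (0%) passed an adjusted p of 0.05 in limma's moderated test, fitted on log2 signal over all 12 arrays with the replicate number as a block, and the lowest adjusted p was 0.9997. At an unadjusted p under 0.05 there were 574 (3.7%), 307 higher (1.98%) and 267 lower (1.72%) with ET-2. Among the single-symbol probe sets the count was 404 (3.31%). In the same fit ET-1 against untreated gave 268 calls (1.73%) and ET-2 against untreated gave 249 (1.6%). Both counts use the same 3 untreated arrays, so they are not independent of each other.

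The measured differences were small. Over the 12193 named probe sets the median size of the log2 difference was 0.0666, a 1.05-fold change, and 95% of them lay within 1.2-fold. Estimates that put one peptide at least 25% above the other numbered 302 (2.48%), with ET-2 the higher for 182 (1.49%) and the lower for 120 (0.984%). Estimates of at least 1.5-fold numbered 24 (0.197%), and 3 reached 2-fold: Gpc3, higher with ET-2, and LOC100909490 and Emilin1, lower. The ET-2 and ET-1 arrays did not overlap for 199 probe sets (1.63%).

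**Figure D1:**
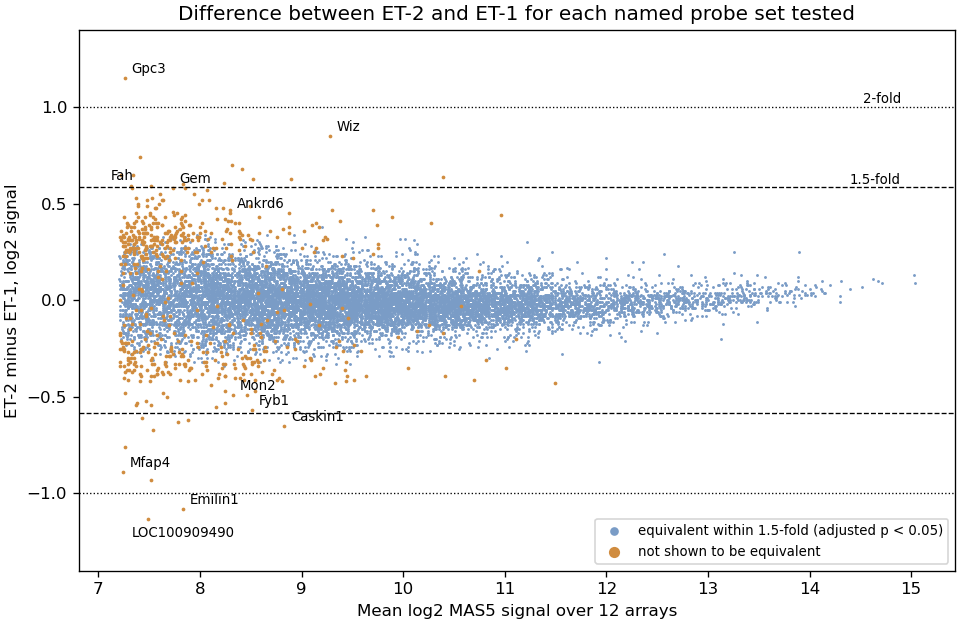
Each point is 1 of the 12193 named probe sets tested; the x axis is its mean log2 signal over 12 arrays and the y axis the ET-2 minus ET-1 difference in log2 signal, with dashed lines at 1.5-fold and dotted lines at 2-fold. Blue points were shown to be equivalent within 1.5-fold (11615 of them), and the orange points that were not are concentrated at low signal.

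A p-value that misses its threshold does not show that the peptides act alike, so bounds on each difference were computed. The 95% interval of a difference reached a median of 0.23 log2 to either side of the estimate, and its outer end lay at a median of 1.24-fold from no difference. Equivalence within a margin was tested with a pair of one-sided tests from the same fit, adjusted over all 15521 probe sets. Of the 12193 named probe sets, 6749 (55.4%) were equivalent within a 25% margin, 11615 (95.3%) within 1.5-fold and 12162 (99.7%) within 2-fold at an adjusted p under 0.05. Over all 15521 the shares were 53.2%, 94.5% and 99.7%. These bounds are for single probe sets and do not hold for all of them at once.

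The bounds were tighter at higher signal. In the lowest quartile of signal among named probe sets (147.5 to 318) the interval reached a median of 0.346 log2 to either side and 85.8% were equivalent within 1.5-fold. In the highest quartile (1354 to 33682) it reached 0.14 log2 and 99.7% were equivalent. Within the 25% margin the shares were 8.53% and 92.4%.

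The genes that endothelin moves most in these cells were examined singly. Intervals of the probe sets that ET-3 moved at least 2-fold were wide. They reached a median of 0.471 log2 to either side, against 0.235 over all tested. The 14 genes examined were chosen by the contrast of ET-3 with untreated: the 8 that rose most and the 6 that fell most among those called. The size of that difference uses no ET-1 and no ET-2 array, but the call does, since the residual variance and the block come from all 12 arrays, and the choice therefore favours genes of low spread between ET-1 and ET-2 pairs. In a fit of the 6 ET-3 and untreated arrays alone, 8 of the 14 were called. That contrast called 410 of 15521 probe sets (2.64%), 331 higher (2.13%) and 79 lower (0.509%). For 6 of the 14 genes, against 95.3% of all named probe sets, the ET-2 and ET-1 levels were equivalent within 1.5-fold. For the other 8 it was not shown. That count was 0 of 14 without the replicate block, 3 without replicate 1, without ET-1 replicate 1 or with no signal filter, and 11 with the ET-1 and ET-2 arrays fitted alone. None of the 14, and 0 of all 15521 tested, passed the test of a difference between the peptides. The ET-1 and ET-2 signals overlapped for all 14, as they did for all but 1.63% of named probe sets.

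Among the 8 genes that ET-3 raised, Il1rl1, the receptor for interleukin-33, had the largest response. Its signal was 656, 246 and 199 in untreated replicates 1, 2 and 3, 11570, 1930 and 1880 with ET-1, and 12270, 916 and 1580 with ET-2. Both peptides raised it, ET-1 by 3.45 log2 (adjusted p = 0.000237) and ET-2 by 3.04 (adjusted p = 0.00058). ET-2 gave the higher signal in replicate 1 and the lower one in the other two. The direct difference was -0.41 ± 0.31 log2 (SE, n = 3 pairs), with a 95% interval from 0.474- to 1.19-fold, so a level with ET-2 under that with ET-1 by more than 1.5-fold was not excluded. Ccl20, a chemokine that attracts lymphocytes and dendritic cells, had signals of 4467, 287 and 108 with ET-1 and 5707, 131 and 81.3 with ET-2. Untreated signals of Ccl20 were 257, 29.6 and 86.6, so it rose severalfold in replicates 1 and 2 and changed little in replicate 3. Its level was far higher in replicate 1 than in the others. Neither peptide's difference from untreated passed (2.57 log2, adjusted p = 0.0597, with ET-1 and 2.17 log2, adjusted p = 0.115, with ET-2). Its interval was the widest of the 14, from 0.298- to 1.93-fold.

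The cyclooxygenases, which make the precursor of all prostaglandins, rose with both peptides. Ptgs2, the inducible form, had signals of 3323, 1222 and 628 with ET-1, 3834, 783 and 570 with ET-2 and 878, 287 and 333 untreated. Its difference between the peptides was -0.19 ± 0.23 log2 (n = 3 pairs), or 0.622- to 1.23-fold, and equivalence within 1.5-fold just missed its threshold (adjusted p = 0.0567). Ptgs1, the constitutive form, had signals of 1463, 696 and 431 with ET-1 and 1577, 484 and 379 with ET-2. Its interval ran from 0.461- to 1.65-fold. Both genes were higher with ET-2 in replicate 1 and lower in replicates 2 and 3.

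Esm1, a secreted proteoglycan of activated endothelium, and S100a6, a calcium-binding protein, passed the test of equivalence within 1.5-fold narrowly. Esm1 kept that call in 6 of 19 alternatives and S100a6 in 11 of 19, with adjusted p up to 0.334 and 0.288. Esm1 signals were 5003, 908 and 1424 with ET-1 and 5339, 706 and 1288 with ET-2, against 381, 102 and 247 untreated. Its responses were 3.13 log2 with ET-1 and 2.99 log2 with ET-2, and the difference was -0.14 ± 0.24 log2 (equivalence adjusted p = 0.0488). S100a6 signals were 12190, 4521 and 4608 with ET-1 and 13620, 3157 and 4047 with ET-2. The S100a6 difference was -0.18 ± 0.18 log2 (equivalence adjusted p = 0.0257), with an interval from 0.67- to 1.16-fold. Fst, which encodes the activin antagonist follistatin, was lower with ET-2 in all 3 pairs, with signals of 1867, 255 and 292 with ET-1 and 1689, 198 and 248 with ET-2. Its estimate of -0.25 ± 0.29 log2 did not pass, and a further Fst probe set gave -0.10. Hrct1 had signals of 727, 182 and 172 with ET-1 and 772, 124 and 139 with ET-2, and its interval ran from 0.492- to 1.42-fold.

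**Figure D2:**
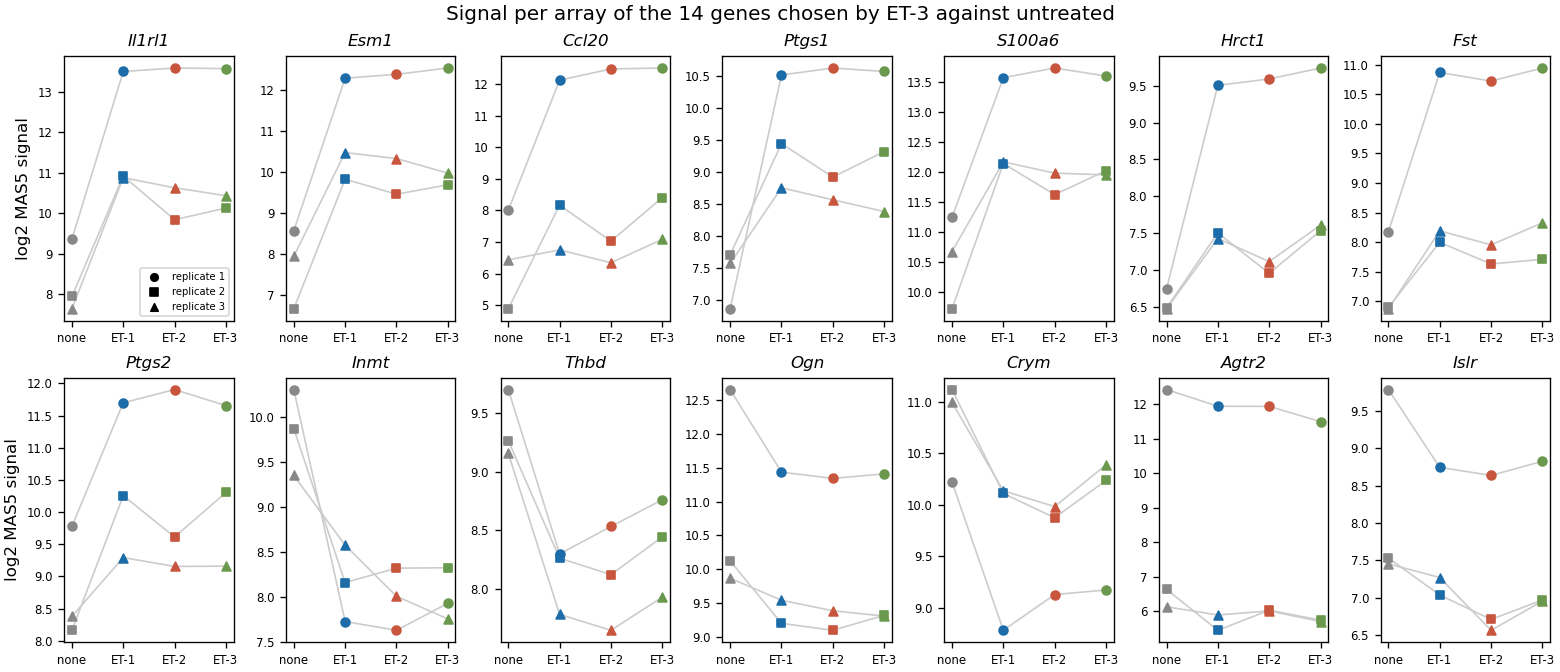
Log2 signal (y axis, scaled to each gene) of the 14 genes with the largest ET-3 responses, with 1 point per array for untreated (none), ET-1, ET-2 and ET-3; grey lines join arrays of the same replicate number, which share a marker. ET-1 and ET-2 points overlap for all 14 genes, as for all but 1.63% of named probe sets. The spread between replicates exceeds the gap between the peptides: Il1rl1 ran from 1880 to 11570 with ET-1 and from 916 to 12270 with ET-2.

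Of the 6 genes that ET-3 lowered 4 were equivalent within 1.5-fold between the peptides, against 2 of the 8 that it raised. Thbd, thrombomodulin, a receptor that turns thrombin toward an anticoagulant role, had signals of 315, 307 and 220 with ET-1 and 370, 278 and 200 with ET-2, all below the untreated 835, 616 and 572. It fell by 1.26 log2 with ET-1 (adjusted p = 0.000305) and by 1.28 log2 with ET-2 (adjusted p = 0.000578). The difference was -0.01 ± 0.12 log2, or 0.827- to 1.19-fold (equivalence adjusted p = 0.000426).

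Crym, a protein that binds thyroid hormone, had signals of 441, 1105 and 1125 with ET-1 and 561, 939 and 1012 with ET-2, against 1193, 2220 and 2036 untreated. It fell by 1.10 log2 with ET-1 and 1.11 log2 with ET-2, and the interval of the difference was 0.841- to 1.17-fold (equivalence adjusted p = 0.00021). Ogn, osteoglycin, a small matrix proteoglycan, had signals of 2774, 588 and 745 with ET-1 and 2603, 547 and 669 with ET-2. It was equivalent within 1.5-fold (difference -0.12 ± 0.14 log2, adjusted p = 0.00312). Thbd, Crym and Ogn kept their equivalence in every alternative except the fit without the replicate block (adjusted p = 0.0548, 0.134 and 0.321).

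Inmt, a methyltransferase of indolamines, had signals of 212, 286 and 382 with ET-1 and 198, 320 and 258 with ET-2, and fell with both peptides by 1.69 and 1.86 log2. Its interval between the peptides, 0.608- to 1.30-fold, was not inside 1.5-fold. Agtr2, the type 2 angiotensin receptor, had a signal of 3943 with ET-1 and 3930 with ET-2 in replicate 1 and of 43.9 to 65.7 in replicates 2 and 3 of both peptides. Its expression was thus carried almost wholly by replicate 1, and its difference of 0.23 ± 0.17 log2 passed equivalence within 1.5-fold (adjusted p = 0.0313) but lost it in 8 of 18 alternatives (adjusted p up to 0.446), among them the fits without replicate 1 and without replicate 3.

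Islr, an immunoglobulin superfamily protein of stromal cells, had signals of 429, 132 and 155 with ET-1 and 398, 105 and 94.9 with ET-2. It was the 1 gene of the 14 with an interval that did not include 0 (-0.38 ± 0.16 log2, 0.607- to 0.975-fold, unadjusted p = 0.0325 in limma). Its fall from untreated passed with ET-2 (0.95 log2, adjusted p = 0.0134) and not with ET-1 (-0.57 log2, adjusted p = 0.099), while the direct difference between the peptides did not pass adjustment. Islr was also on the fibroblast list, whose summed signals are given above, and the part of fibroblast content in its value was not tested.

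Over all 410 probe sets called with ET-3, the ET-2 minus ET-1 difference was turned so that a negative value means a smaller response with ET-2. The median turned difference was -0.067 log2, against -0.006 over all 15521 probe sets. The response was smaller with ET-2 for 290 of 410 (70.7%), against 52.6% of all tested. The median was -0.08 for the 331 probe sets that rose with ET-3 (254 smaller) and 0.012 for the 79 that fell (36 smaller). Replicate 2 carried most of the lean: the medians were 0.025, -0.175 and -0.027 in pairs 1, 2 and 3, and -0.01 over pairs 1 and 3 alone. Of the 410, 0 passed adjustment between the peptides, as did 0 of all 15521. An unadjusted p under 0.05 in limma was met by 30 of the 410, against 574 of 15521 (3.7%). Of these 30, 14 had a smaller response with ET-2 and 16 a larger one. Equivalence within 1.5-fold held for 361 (88%), against 94.5% of all tested, and within 2-fold for 405, against 99.7% of all tested.

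Because the calls share their residual variance with the ET-2 against ET-1 contrast, the responsive probe sets were also chosen in ways that use only the ET-3 and untreated arrays, added after seeing the data. The 410 probe sets with the largest ET-3 differences by size alone gave a median turned difference of -0.082 log2, a smaller response with ET-2 for 288, and pair medians of 0.033, -0.222 and -0.025. Of these 410 only 268 (65.4%) were equivalent within 1.5-fold, against 88% of the called ones. A fit of those 6 arrays alone called 56 probe sets, with a median of -0.117, 46 smaller with ET-2 and 46 equivalent.

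The values were further from 0 in the 79 probe sets that ET-3 moved at least 2-fold. Their median turned difference was -0.138 log2 and 65 had a smaller response with ET-2, with pair medians of 0.034, -0.346 and -0.088. Within 1.5-fold 47 of the 79 were equivalent (59.5%, against 94.5% of all tested), and within 2-fold 74. In replicate 2 the summed fibroblast markers were also lower with ET-2 than with ET-1 (10933 against 13864), as were those of astrocytes and Müller glia (22955 against 25757), while the summed ganglion cell markers were higher (136306 against 129073). In replicate 1 the fibroblast and glial sums were higher with ET-2 (60418 against 56721, and 33585 against 32256). So was the ganglion cell sum (112494 against 108720). In replicate 3 the fibroblast and glial sums were lower with ET-2 (8063 against 9812, and 31263 against 31764). The ganglion cell sum was again higher there (156718 against 153730). The glial sum is not separate from the lean, because Vim, Gja1 and Clu, which make up most of it, were themselves called higher with ET-3. Their signals in replicate 2 were 10930, 1581 and 8534 with ET-1 and 9692, 1106 and 7705 with ET-2. The part of these marker levels in the lean was not tested.

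**Figure D3:**
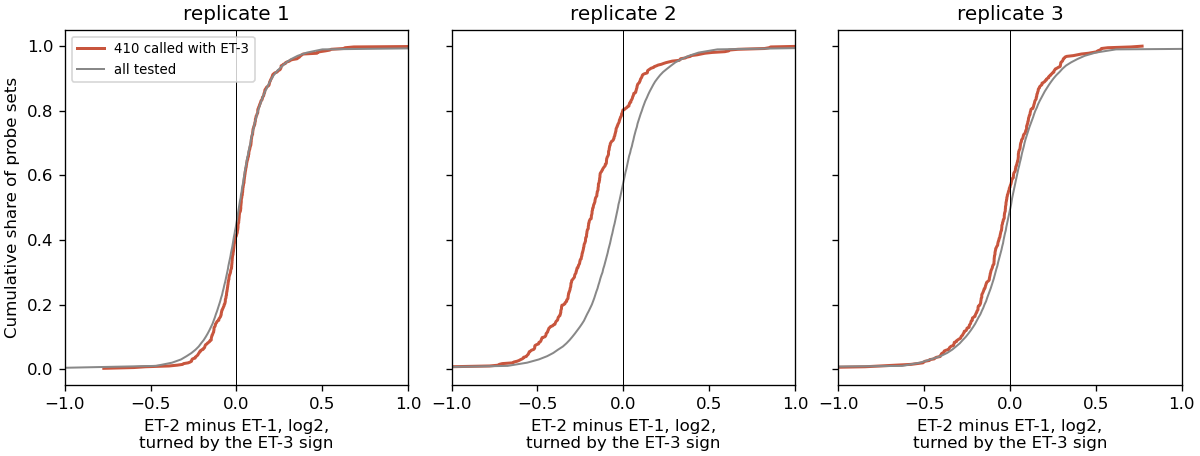
Cumulative share of probe sets (y axis) by their ET-2 minus ET-1 difference in log2 signal, turned by the direction of the ET-3 response (x axis), for the 410 probe sets called with ET-3 (red) and all 15521 tested (grey), in each of the 3 replicate pairs. The red curve lies left of 0 in pair 2 (median -0.175) and near 0 in pairs 1 and 3 (0.025 and -0.027).

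The remaining description uses gene lists drawn up for this tissue and treatment, with each gene represented by its probe set of highest mean signal. The background is the 9425 genes tested, with a median difference of -0.01 log2, 4165 estimates above 0 (44.2%) and 5260 below. At an unadjusted p under 0.05 in limma 118 were higher and 184 lower. Of the 9425, 0 were called and 9051 were equivalent within 1.5-fold. No list held a gene called between the peptides. Some lists overlap the probe sets called with ET-3, so their values are not separate from the lean described above. Called higher with ET-3 were 10 of 21 inflammatory, 16 of 37 matrix and 7 of 18 S100 and annexin genes, against 239 of all 9425. The counts of equivalent genes rest on the replicate block: without it they were lower in every list, for example 3 of 21 inflammatory genes and 11 of 19 ganglion cell markers. Centring each array on its median, in place of the deposited scaling, lowers the background median from -0.014 to -0.086. That centring lowers every gene's estimate by the same amount, so each list keeps its distance from the background.

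The inflammatory list had the lowest median among the pathway lists. Of its 21 tested genes 20 had estimates below 0 and 1 above, with a median of -0.17 log2, and 16 were equivalent within 1.5-fold. None had an unadjusted p under 0.05. Ccl2 and Ccl7, chemokines for monocytes, rose with both peptides. Ccl2 rose by 1.33 log2 with ET-1 and 1.12 with ET-2, and Ccl7 by 1.33 and 1.11. Their direct differences of -0.21 (-0.64 to 0.23) and -0.22 (-0.59 to 0.15) passed equivalence within 1.5-fold (adjusted p = 0.0441 and 0.03), which held in 10 and 11 of 19 alternatives. Icam1, a leukocyte adhesion molecule, rose by 0.86 with ET-1 and 0.69 with ET-2 and differed by -0.17 (-0.42 to 0.08). Il6 had an interval too wide to place it (-1.44 to 0.97). The list's median was 0 in pair 1, -0.36 in pair 2 and -0.09 in pair 3, and ran from -0.243 without replicate 1 to -0.037 without replicate 2, where 7 estimates lay above 0 and 14 below.

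Matrix genes and targets of transforming growth factor beta gave 8 estimates above 0 and 29 below among 37, with a median of -0.09 log2 that ran from -0.183 without ET-2 replicate 1 to -0.026 without replicate 2. Of these, 30 were equivalent within 1.5-fold, and 4 had an unadjusted p under 0.05, all lower with ET-2: Col1a2, Col3a1, Col4a2 and Bgn. Col4a2, a basement membrane collagen, rose with ET-1 (0.71 log2, adjusted p = 0.00359) and with ET-2 (0.45, adjusted p = 0.0433), and the direct difference was -0.26 (-0.47 to -0.05). Ccn2, connective tissue growth factor, was closely bounded: it rose by 0.81 log2 with ET-1 and 0.80 with ET-2 and differed by -0.01 (-0.20 to 0.17). Ccn1, a related matricellular protein, rose by 1.45 and 1.33 and differed by -0.11 (-0.60 to 0.38). Tnc, tenascin C, remained unplaced, with an interval from -1.37 to 1.30.

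Of 8 tested genes of prostaglandin synthesis, 5 were equivalent within 1.5-fold, with a median of -0.15 log2. The median ran from -0.271 without ET-2 replicate 1 to -0.002 without ET-2 replicate 2, where 4 estimates lay on each side of 0; it was -0.019 without replicate 2 and -0.013 without ET-1 replicate 1. Pla2g4a, the phospholipase that releases arachidonic acid, had a difference of -0.25 (-0.63 to 0.12). Ptges3, a cochaperone also described as a prostaglandin E synthase, was tightly bounded at 0.00 (-0.10 to 0.11). Among 18 genes of S100 proteins, annexins and membrane repair the median was -0.08 and 16 were equivalent. Leaving out arrays moved that median from -0.127 without replicate 1 to 0.009 without replicate 2. Myof, myoferlin, a membrane repair protein, rose by 1.14 log2 with ET-1 and 1.09 with ET-2 and differed by -0.06 (-0.34 to 0.22). Anxa5, annexin A5, had an unadjusted p of 0.0131 in limma and a difference of -0.19 (-0.33 to -0.05), well inside 1.5-fold.

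Genes on the signalling path of the receptors were mostly bounded within 1.5-fold. Of 35 tested genes of G protein and calcium signalling, 34 were equivalent within 1.5-fold. Their median was 0.01 log2 (-0.061 with arrays centred on their medians, against -0.086 for all genes tested). Grk6, a kinase that desensitises G protein-coupled receptors, differed by -0.23 and Ryr2, a calcium release channel, by 0.32; neither passed adjustment. All 10 tested genes of MAP kinase feedback were equivalent, Dusp5 at -0.26 and Dusp7 at 0.18. Of 18 immediate early genes 13 were equivalent (8 without ET-1 replicate 3), with a median of -0.07 that ran from -0.166 without ET-1 replicate 3 to -0.014 without replicate 2 and -0.015 without ET-1 replicate 1. Klf4, a transcription factor of that class, had the lowest value of the list at -0.41 and was not shown to be equivalent (adjusted p = 0.191). The cell cycle list had 24 of 29 equivalent (15 without replicate 3) and a median of -0.03, which became -0.109 without ET-2 replicate 1 and 0.01 without ET-2 replicate 2. Ccnb2, a mitotic cyclin, rose with both peptides (1.15 and 1.26 log2) and differed by 0.10 (-0.46 to 0.67).

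Metabolic and stress genes were bounded about as often as the 96% of all genes tested. All 28 tested genes of the ER stress list, 25 of hypoxia and glycolysis, 31 of oxidative phosphorylation, 20 of cholesterol synthesis and uptake and 20 apoptosis regulators were equivalent within 1.5-fold. So were 21 of 22 antioxidant and NRF2 target genes (95.5%) and 14 of 16 heat shock genes (87.5%). Cholesterol genes had 18 of 20 estimates below 0, with a median of -0.09 log2 that ran from -0.145 without ET-2 replicate 1 to -0.049 without replicate 2 (15 of 20 below 0). Sqle, squalene epoxidase, was lower by 0.16 log2 in estimate (unadjusted p = 0.0176 in limma), and Birc2, an inhibitor of apoptosis, had a difference of -0.27 (unadjusted p = 0.00453); neither passed adjustment.

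**Figure D4:**
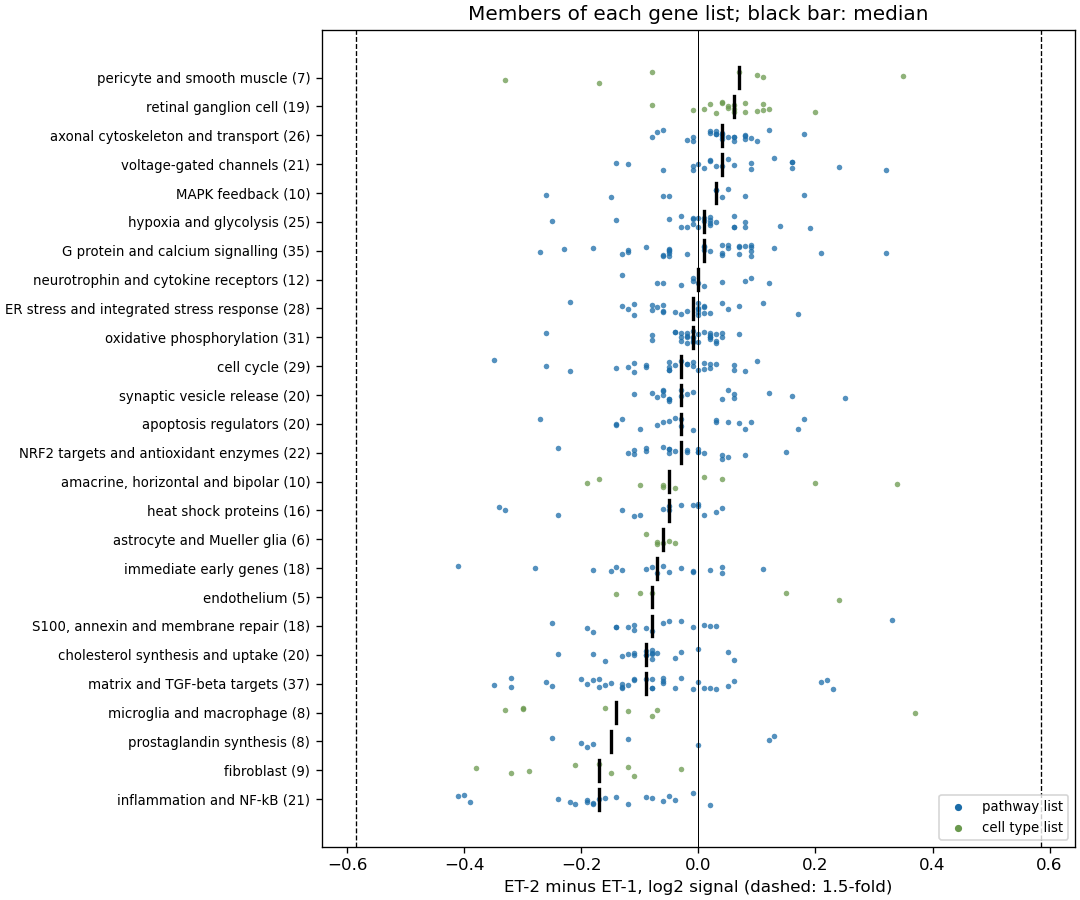
Each point is the ET-2 minus ET-1 difference in log2 signal of 1 gene, by list (number tested in brackets), with black bars at list medians and dashed lines at 1.5-fold. Every gene shown lies inside the dashed lines, and list medians run from -0.17 (inflammation and fibroblast) to 0.07 (pericyte).

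All 19 tested ganglion cell markers were equivalent within 1.5-fold and 15 of them within the 25% margin. Thy1, the antigen used to select the cells, had signals of 3281, 4216 and 7588 with ET-1 and 3084, 4846 and 7560 with ET-2, a difference of 0.04 log2 (-0.18 to 0.25). Slc17a6, the vesicular glutamate transporter of these neurons, differed by 0.05 (-0.05 to 0.15). Rbpms, an RNA-binding marker of ganglion cells, differed by -0.08 (-0.22 to 0.06). The list median was 0.06 with 17 of 19 estimates above 0. It became -0.017 when arrays were centred on their medians, against -0.086 for all genes tested.

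All 26 genes of the axonal cytoskeleton and transport were equivalent within 1.5-fold, with 20 of 26 estimates above 0. Their median of 0.04 became -0.03 under the same centring, against -0.086 for all genes tested. Gap43, a growth cone protein, differed by 0.06 (-0.06 to 0.18), and Kif1a, a motor that carries synaptic vesicle precursors, by 0.18 (-0.12 to 0.48). All 20 genes of synaptic vesicle release, 21 voltage-gated channels and 12 neurotrophin and cytokine receptors were equivalent within 1.5-fold. Kcnc2, a fast potassium channel, had an estimate of 0.24 (unadjusted p = 0.0147 in limma), and Igf1, a growth factor found in some ganglion cells, 0.12 (-0.02 to 0.27).

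The lists for other cell types did not all lean one way. All 9 tested fibroblast markers had estimates below 0, with a median of -0.17 log2, pair medians of 0.08, -0.33 and -0.27, and 8 of 9 equivalent within 1.5-fold (4 without ET-2 replicate 1). The median ran from -0.301 without replicate 1 to -0.096 without replicate 2. Col1a2, a fibrillar collagen, differed by -0.32 (-0.61 to -0.02) and Pdgfra, a growth factor receptor of fibroblasts, by -0.29 (-0.53 to -0.04), without passing adjustment. Of 8 microglial markers 7 were below 0 and 7 equivalent (3 without replicate 1), and the median of -0.14 ran from -0.246 without replicate 1 to -0.088 without ET-1 replicate 3. Aif1, which encodes the microglial protein Iba1, differed by -0.33 (-0.57 to -0.08) and Lyz2, lysozyme, by -0.30 (-0.53 to -0.07). All 6 astrocyte and Müller glia markers were below 0, from -0.09 to -0.04, and equivalent, but without replicate 2 they split into 3 above and 3 below with a median of -0.003. Estimates lay below 0 for 3 of 5 endothelial markers and 6 of 10 amacrine, horizontal and bipolar markers. They lay above 0 for 2 of 3 oligodendrocyte markers and the 1 photoreceptor marker tested. Pericyte markers had a median of 0.07, which became -0.008 when arrays were centred on their medians, against -0.086 for all genes tested. Leaving out arrays moved it from -0.079 without ET-1 replicate 3 (3 estimates above 0 and 4 below) to 0.103 without ET-1 replicate 2.

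All 3 tested members of the endothelin system passed equivalence within 1.5-fold between the peptides, Ece2 in 14 of 18 alternatives and the others in all that were run. Ece1, the main endothelin-converting enzyme, had signals of 657, 538 and 544 with ET-1 and 567, 454 and 454 with ET-2, against 518, 424 and 449 untreated. It was lower with ET-2 in all 3 pairs by -0.24 log2 in estimate (-0.42 to -0.06, unadjusted p = 0.0144 in limma), did not pass adjustment, and was equivalent within 1.5-fold (adjusted p = 0.00118). Ece2, a second converting enzyme, differed by 0.18 (-0.19 to 0.55) and Ecel1, a related neuronal protease, by 0.02 (-0.14 to 0.17). Edn1, the gene of ET-1, lay below the filter, with signals of 110, 127 and 124 with ET-1, 96.1, 102 and 117 with ET-2 and 59.4, 65.2 and 108 untreated. Edn3, Ednra and Ednrb were not analysed here.

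A further 12 genes were taken from this contrast by their unadjusted p, among genes at least 25% apart that moved alike in all 3 pairs, so their values describe it and were not tested further. None passed adjustment. Wiz, a zinc finger partner of the G9a histone methyltransferase, had the smallest p of the 12: its signals were 376, 483 and 508 with ET-1 and 691, 772 and 1020 with ET-2, without overlap. Its difference was 0.85 ± 0.16 log2 (0.51 to 1.2, unadjusted p = 0.000136 in limma), and the 3 pairs gave 0.88, 0.68 and 1.01. The untreated arrays read 617, 452 and 600 and the ET-3 arrays 685, 544 and 1045. Gem, a small GTPase that restrains calcium channels, gave 0.58 with signals of 152, 216 and 148 with ET-1 and 245, 291 and 227 with ET-2. Also higher with ET-2 in estimate were Ankrd6 (0.45), Fah (0.59), Cttnbp2 (0.63) and Pip5k1b (0.48).

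Fyb1, an adaptor of blood cells, had the smallest p among the 6 lower with ET-2 (-0.57 log2, unadjusted p = 0.000192 in limma), with signals of 467, 561 and 355 with ET-1 and 308, 410 and 224 with ET-2. Caskin1, a synaptic scaffold protein, gave -0.65, with signals of 457, 608 and 709 with ET-1 and 281, 455 and 398 with ET-2. For Mon2 (-0.49), of endosomal trafficking, another probe set gave 0.02. Mcam, the adhesion molecule CD146, gave -0.33 (-0.54 to -0.12) and another probe set -0.23 (-0.52 to 0.07). Mcam rose with ET-1 (0.67 log2, adjusted p = 0.00387), its ET-2 value was 0.35 (adjusted p = 0.104), and the peptides passed equivalence within 1.5-fold (adjusted p = 0.0114), which held in 14 of 19 alternatives. Fkbp9 (-0.39) and Klhl26 (-0.40) complete the set.

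**Figure D5:**
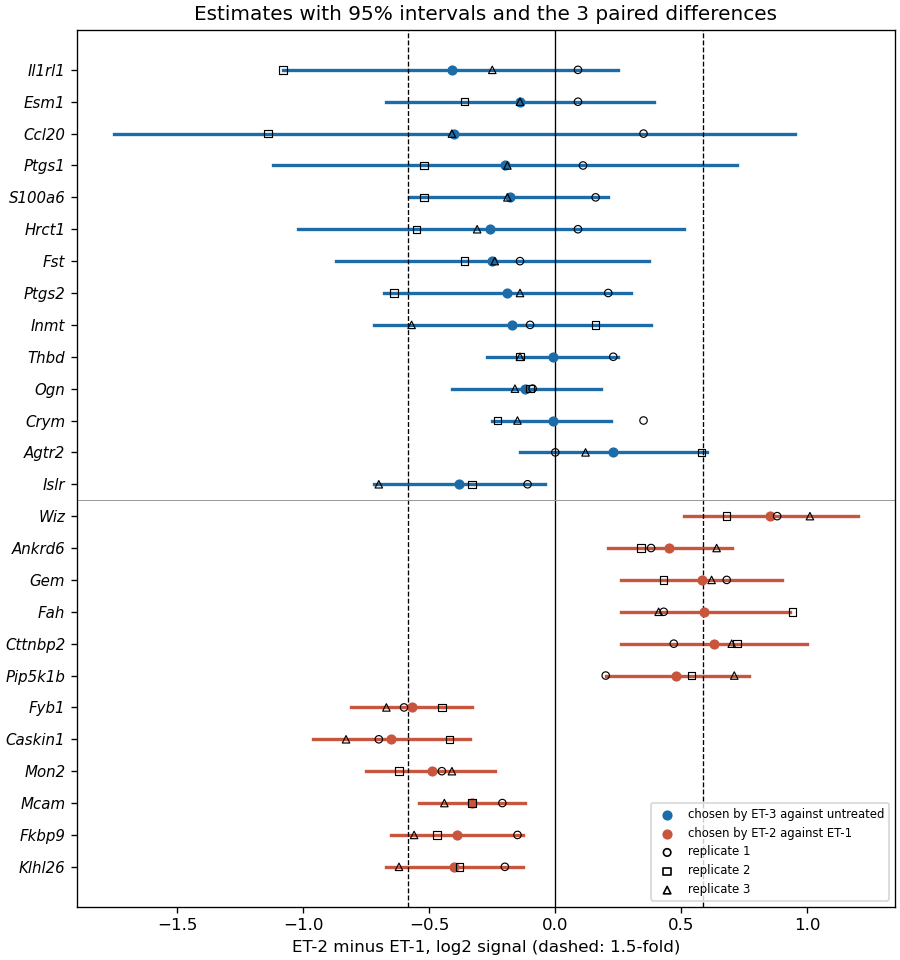
ET-2 minus ET-1 differences in log2 signal (filled points) with 95% intervals (bars) and the 3 paired differences (open symbols), for the 14 genes chosen by ET-3 and the 12 genes chosen by ET-2 against ET-1. Intervals of the former include 0 for all but Islr, and those of the latter lie off 0 because the genes were picked by that difference.

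The 4 genes whose intervals reached furthest from 0 each had their largest paired difference in replicate 3. LOC100909490 gave -1.13 log2 (-2.21 to -0.06), with pair differences of -0.32, 0.15 and -3.23 and a signal of 25.8 in ET-2 replicate 3. Emilin1, an elastic fibre protein, gave -1.08 (-1.80 to -0.35) with pair 3 at -2.32. Mfap4, a microfibril protein, gave -0.89 (-1.87 to 0.10) with pair 3 at -2.56. Gpc3, a heparan sulphate proteoglycan, gave 1.15 (0.39 to 1.91), with signals of 982, 27.0 and 23.5 with ET-1 and 960, 57.2 and 124 with ET-2, and pair differences of -0.03, 1.08 and 2.40.

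The 8633 named probe sets below the filter could not be bounded as closely. In a fit without the filter, 0 of them were called and 483 (5.59%) had an unadjusted p under 0.05. Their median difference was 0.329 log2 in size, and their intervals reached a median of 1.1 log2, or 2.14-fold, to either side. Within 1.5-fold 431 of the 8633 were equivalent.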

How the data were processed

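The deposited values are linear intensities, 1 for each probe set on each array. They were made with MAS5, per the submitters' processing notes, which name no version or settings. The mean after trimming 2% at each end was 496.7 to 498.3 on every array, so the authors appear to have scaled to a common trimmed mean; array medians ran from 136 to 181. Log2 intensity was fitted without further normalization in limma 3.58.1 (R 4.3.3) over 12 arrays: 4 group means, the replicate number as a block, and eBayes with an intensity trend. Probe sets at or above the median mean log2 signal (147.5) were tested, with two-sided p-values adjusted by Benjamini-Hochberg over 15521. Standard errors and intervals are limma's moderated ones with 12.6 degrees of freedom. The script was tested on simulated data.

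The block rests on a check of the replicate numbers: deviations from group means correlated at 0.684 to 0.912 for all 18 pairs of arrays with the same number. For ET-1 and ET-2 the range was 0.822 to 0.912, against -0.697 to -0.227 for differing numbers. Deviations sum to 0 within each group, so a positive correlation for equal numbers pushes that for differing numbers below 0. The negative range is therefore no separate evidence for the block. Because the block removes differences between replicate numbers, the p-values do not measure the full spread between these samples. They rest on the moderated spread left after the group means and the block were fitted. The median residual standard deviation was 0.127 log2 with the block and 0.25 log2 without it. The labels do not detail the separate origin of the samples.

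Named genes were, by rule, the 6 higher and 6 lower genes nearest to a call between ET-2 and ET-1 that were at least 25% apart and moved alike in all 3 pairs, the 8 higher and 6 lower of largest ET-3 response, the endothelin system, up to 2 genes of smallest p per list, and the 4 with the furthest interval. Other list members were chosen after their values were seen. The members, lists and tests were chosen with earlier results of these data known. Names came from the platform annotation; RefSeq held 20758 of 20826 by Entrez ID.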

Additional observations from a re-analysis of the deposited data

Results flagged for a closer look

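For 5 named genes all 3 ET-1 arrays lay on one side of the untreated array of the same number and all 3 ET-2 arrays on the other. Ankrd6 was lower with ET-1 and higher with ET-2 (difference 0.45 log2). Fyb1 (-0.57), Caskin1 (-0.65), Mon2 (-0.49) and Emilin1 (-1.08) were higher with ET-1 and lower with ET-2. The same pattern was met by 79 of all 15521 probe sets (0.509%). Both comparisons share the untreated arrays, and the genes were picked by the ET-2 minus ET-1 difference or its interval. The direct difference was tested in limma and did not pass adjustment for any of the 5 (lowest adjusted p over all probe sets 0.9997).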

How the results depend on the processing

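The absence of calls between ET-2 and ET-1 held in every alternative that was run except 1. Leaving out 1 array or pair in turn gave 0 to 1 calls, the 1 being Washc3 without ET-2 replicate 2 (0.97 log2, adjusted p = 0.0484; 0.64 with all arrays). With the 2 groups fitted alone the lowest adjusted p was 0.0541 (Wiz) and the count at an unadjusted p under 0.05 was 1106 in place of 574. Centring each array on its median gave 1214 by that count and moved the 9425 genes from 4165 higher and 5260 lower to 1819 and 7606. Without the replicate block 41 had an unadjusted p under 0.05, and 9292 probe sets were equivalent within 1.5-fold, against 14667 with the block. Testing only the upper quartile of signal gave 7698 of 7761. Leaving out arrays gave 13454 to 14108. The median turned difference of the ET-3 responsive probe sets ran from -0.15 to 0.019 over these (the upper value without replicate 2, over 43 probe sets) and from -0.117 to -0.032 over the other alternatives that gave one. It could not be computed without the replicate block, where ET-3 gave 0 calls in limma (297 at an unadjusted p under 0.05), or with the 2 groups alone. The bounds varied with the replicate block and also with signal: equivalence within 1.5-fold held for 85.8% of named probe sets in the lowest quartile of signal and 99.7% in the highest.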
